A study of Mus musculus with 2 samples.

Results

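The 10 genes described here are H19, Igf2, Cdkn1c, Kcnq1ot1, Peg3, Ndn, Snrpn, Grb10, Plagl1 and Mest, chosen by name because they are imprinted and because H19 and Igf2 share a CTCF-insulated locus. All 10 were found among the 32285 genes of the count matrix. They were measured by SPARC-seq, in which each barcode yields both RNA and accessible DNA, in tissue labelled as E18.5 brain of C57BL/6 mice. Marker RNA of skeletal muscle, bone, epithelium and pituitary was also read, so the label does not mean brain tissue alone. Both libraries, 1 of RNA and 1 of chromatin accessibility, carried a homozygous Ctcf mutation made with CRISPR/Cas9, labelled R567W, and neither a replicate nor a wild-type library was analysed here. Differences were therefore taken between sets of spots within these libraries, and nothing below measures an effect of the mutation.

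In tissues where it is imprinted, a gene is read mainly from the maternal or the paternal chromosome, commonly because a nearby control region was methylated in one germ line. At H19 and Igf2 the control region lies just upstream of H19 and is bound by the zinc finger protein CTCF on the unmethylated maternal chromosome. There CTCF insulates Igf2 from enhancers beyond H19, so that the mother's copy gives H19 and the father's copy gives Igf2. Both RNAs are abundant in fetal muscle and other mesodermal tissues and low in neurons of the fetal brain. The reads here were not assigned to parental alleles.

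Matches of a CTCF motif were sought around H19, since the CTCF sites of the control region are what set the locus apart. A core of the CTCF motif, CCGC followed by any pair of bases and then GGNGGCAG, was searched on both strands of GRCm38 and gave 561 matches in the genome. Exactly 4 of them lay within 150 kb of the H19 transcription start site (TSS, chromosome 7, 142578143, minus strand). All 4 were on the minus strand, as H19 is, in intergenic sequence 2.17, 2.63, 3.65 and 3.90 kb upstream of the TSS. Of 529508 windows of 5 kb, 0.104% held a match, 2 held more than 3, and 1 of these 2 is the window upstream of H19. The sites are given in order of distance from H19, 5′ to 3′ on the minus strand, with the motif in capitals and 20 bases of the reference on each side.
Site 1, chr7:142580289-142580342: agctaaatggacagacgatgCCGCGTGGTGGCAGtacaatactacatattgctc
Site 2, chr7:142580744-142580797: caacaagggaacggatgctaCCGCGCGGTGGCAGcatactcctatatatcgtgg
Site 3, chr7:142581770-142581823: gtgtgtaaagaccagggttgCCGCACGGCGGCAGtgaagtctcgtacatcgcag
Site 4, chr7:142582014-142582067: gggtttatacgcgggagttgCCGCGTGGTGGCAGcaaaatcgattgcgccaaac
The pattern fixes 11 of the 14 positions of a match, and sites 1 and 4 had the same base at the others too. A match describes letters only and does not show binding. The pattern was set down for the sites upstream of H19, so the matches there do not test where the control region lies.

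All barcodes of the count matrix were also present in the accessibility library. Each barcode joins a first and a second segment out of 50, which was read as a grid of spots that can each hold several cells. After filtering, which removed 1 barcode, 1992 spots were kept, with 907 to 12442 unique molecular identifiers (UMIs) and 5759 to 87572 fragments each. Muscle-rich spots were the 200 spots in the top 10% by CPM (UMI counts scaled to a common total) of Acta1 plus Ttn, which encode skeletal muscle actin and titin. Neural spots were 853 spots outside the top 25% by that measure and in the top 50% by a list of 12 neuron markers. Although chosen for less Acta1 and Ttn, neural spots were not free of muscle RNA, since 84.8% of them held an Acta1 UMI (82.2% to 87.1%, exact Clopper-Pearson interval). Median depth was 4284.5 UMIs in muscle-rich and 4399 in neural spots, but 31988.5 against 21228 fragments, of which 53.7% and 44.3% had sub-nucleosomal length. All intervals are at 95% and take in counting error alone, and no test was possible with 1 library per assay.

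H19 RNA was higher where muscle RNA was higher. H19, a noncoding RNA of the maternal chromosome (ENSMUSG00000000031, GRCm38 chromosome 7, 142575529 to 142578143), was read 14474 times as UMIs over all kept spots, or 1662 CPM (1634.6 to 1688.9, exact Poisson interval). At least 1 H19 UMI was seen in 98.3% of spots (97.7% to 98.9%), with a highest value of 47 UMIs in a spot. The median was 15 UMIs per muscle-rich spot and 5 per neural spot. The rate was 3650 CPM in muscle-rich and 1235 CPM in neural spots, a ratio of 2.96 (2.83 to 3.09). In a set of spots, fewer cells of a type and less RNA per cell cannot be told apart.

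Igf2 followed the same pattern at both ends. Igf2, the fetal growth factor made mainly from the paternal chromosome (ENSMUSG00000048583, chromosome 7, 142650766 to 142666816), had 4626 UMIs, or 531 CPM (516 to 547), and was seen in 81.3% of spots. Its rate was 1035 CPM in muscle-rich and 411 CPM in neural spots, a ratio of 2.52 (2.32 to 2.73). Both RNAs were found together in 1600 of 1992 spots, H19 alone in 359, Igf2 alone in 20 and neither in 13. For each Igf2 UMI there were 3.53 H19 UMIs (3.28 to 3.80) in muscle-rich and 3.003 (2.84 to 3.18) in neural spots. The intervals of the 2 sets did not overlap, but the difference depended on the barcode segments described further on. With the second segment as a stratum the ratio of muscle-rich to neural spots was 1.26 for H19 and 1.28 for Igf2. Without 6 of the segments it was 1.43 and 1.55.

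Detection in neural spots does not by itself place these RNAs in neural cells. An Igf2 UMI was seen in 76.9% of neural spots and an H19 UMI in 97.9% (96.7% to 98.7%), beside 98.0% (96.8% to 98.8%) for Hbb-bs, a globin of red blood cells. The source of H19 and Igf2 RNA in neural spots was not tested. Thinned to 2000 UMIs per spot, H19 was expected in 99.4% of 174 muscle-rich and 90.3% of 802 neural spots, with 26 and 51 shallower spots left out.

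Of the 10 genes, 4 were at least 2 times higher in muscle-rich than in neural spots, namely H19, Igf2, Cdkn1c and Plagl1, and 0 were at most 0.5 times. With the top 20% of spots 2 genes passed, and without 6 barcode segments described further on only Plagl1 did, at 2.31 (0.903 to 4.96). All 10 had at least 20 UMIs in these sets, as did 13842 genes in all, of which 6.3% passed 2-fold upward and 4% downward. The median ratio of the 10 genes was 1.59 and that of all genes tested 0.981. In counts simulated with no change and with Poisson noise only, 3.64% of genes passed 2-fold, but 0 of those with at least 500 UMIs. Differences between spots or barcode segments were not simulated, so these shares do not cover them. Plagl1, with 52 and 91 UMIs in the 2 sets, is not among the genes with at least 500.

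Beside H19, the genes known for maternal expression were the growth-restraining Cdkn1c and Grb10. Cdkn1c, which encodes an inhibitor of cyclin-dependent kinases, had 479 CPM in muscle-rich and 220 CPM in neural spots, a ratio of 2.18 (1.93 to 2.45). Grb10, an adaptor that dampens insulin and IGF receptor signalling, had 232 and 149 CPM, a ratio of 1.55 (1.32 to 1.83), which was 1.09 with the second barcode segment as a stratum. Grb10 is known as maternally expressed in most tissues and paternally expressed in neurons, and these counts cannot separate the alleles. Kcnq1ot1, the paternal antisense RNA that silences Cdkn1c in cis, had 313 and 252 CPM. Its ratio of 1.24 (1.08 to 1.42) was lower than that of Cdkn1c, with intervals that did not overlap. With the segment as a stratum the ratios were 0.910 for Kcnq1ot1 and 1.42 for Cdkn1c. Kcnq1ot1 lies inside Kcnq1 on the other strand, and the strand setting of the counting was not given in the sources used here.

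Paternally expressed genes fell on both sides of 1. Plagl1, a zinc finger transcription factor, had the fewest UMIs of the 10 genes, 260 in the kept spots, with 59.5 CPM in muscle-rich and 23.6 CPM in neural spots, a ratio of 2.52 (1.76 to 3.58). Mest, a mesoderm-specific hydrolase, had 145 and 88.9 CPM, a ratio of 1.63 (1.32 to 2.01). Peg3, a large zinc finger protein, had 197 and 159 CPM, a ratio of 1.23 (1.04 to 1.46). Ndn and Snrpn from the Prader-Willi region, which encode the neuronal growth suppressor necdin and a spliceosome protein of the brain, were lower in muscle-rich spots. Ndn had 110 against 161 CPM (ratio 0.683, 0.545 to 0.849) and Snrpn 156 against 236 CPM (ratio 0.660, 0.547 to 0.792). The neuron list itself had a ratio of 0.647 (0.629 to 0.665), close to those of Ndn and Snrpn, but the list was also used to choose neural spots.

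**Figure D1:**
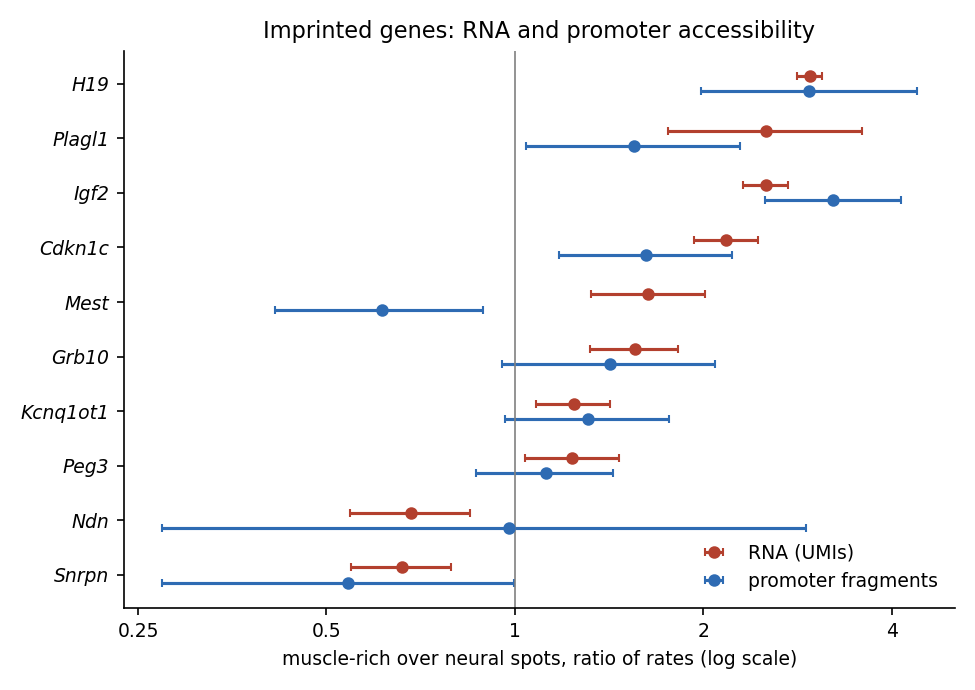
Ratio of muscle-rich to neural spots for each of the 10 genes, for RNA as UMI rate (red) and for fragments at promoters (blue), on a log axis with 95% counting intervals. H19, Igf2, Cdkn1c, Plagl1, Grb10, Kcnq1ot1 and Peg3 lie above 1 in both measures, and Snrpn and Ndn lie below 1 in both. Intervals of the Grb10, Kcnq1ot1, Peg3 and Ndn promoters include 1. Mest is above 1 in RNA (1.63) and below 1 at its promoters (0.614).

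For H19 and Igf2, most of the RNA difference lay between second barcode segments. Of the muscle-rich spots, 150 (75%) fell in 6 of the 48 second segments, which held 0.234% of the neural spots. Over the 46 second segments with at least 10 kept spots, H19 ranged from 896 to 3911 CPM with a median of 1291. In the 6 segments highest in Acta1 plus Ttn it lay between 2911 and 3911 CPM, and in the other 40 between 896 and 3423 CPM with a median of 1252. Only 1 of these 40 reached the range of the 6, a segment with 12 kept spots and 102 H19 UMIs (3423 CPM, 2791 to 4155). The same segment was highest of the 40 for Igf2 (940 CPM), Grb10 (537 CPM) and Ndn (268 CPM, from 8 UMIs).

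Igf2 and Cdkn1c were split in a like manner. Igf2 lay between 746 and 1158 CPM in the 6 segments and between 289 and 940 in the others, and Cdkn1c between 345 and 550 against 128 and 512, each with 1 of 40 segments reaching into the upper range. Ndn and Snrpn ran the other way. Ndn was between 68.4 and 134 CPM in the 6 segments and between 94.8 and 268 in the others, with a median of 165. Snrpn was between 105 and 161 CPM against 98.5 and 336, with a median of 231. For both genes the range of the others thus took in part or all of that of the 6. Kcnq1ot1 (270 to 350 CPM against a median of 273) and Peg3 (155 to 191 against 165) overlapped throughout.

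With the second segment as a stratum, the ratio of muscle-rich to neural spots was 1.26 for H19, 1.28 for Igf2 and 1.42 for Cdkn1c (Mantel-Haenszel), under the unstratified ratios. Plagl1 had 2.73, Mest 1.48 and Peg3 1.43, beside 2.52, 1.63 and 1.23 unstratified. Ndn (0.929), Snrpn (0.830) and Grb10 (1.09) moved towards 1, and Kcnq1ot1 turned below 1, at 0.910. These values rest on few spots, as only 2 segments held at least 5 spots of each set. In these 2 Mest had 0 and 0.499, Grb10 0.499 and 0.613 and Ndn 1.497 and 1.53, on the other side of 1. Igf2 had 0.998 and 1.26, and Kcnq1ot1 and Snrpn each had 1 of the 2 segments above 1. Without the 6 segments, 50 muscle-rich and 851 neural spots were left, and the ratio was 1.43 (1.25 to 1.64) for H19 and 1.55 (1.22 to 1.93) for Igf2. A segment effect of the libraries and the layout of the tissue cannot be told apart here, since no spot positions were used.

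**Figure D2:**
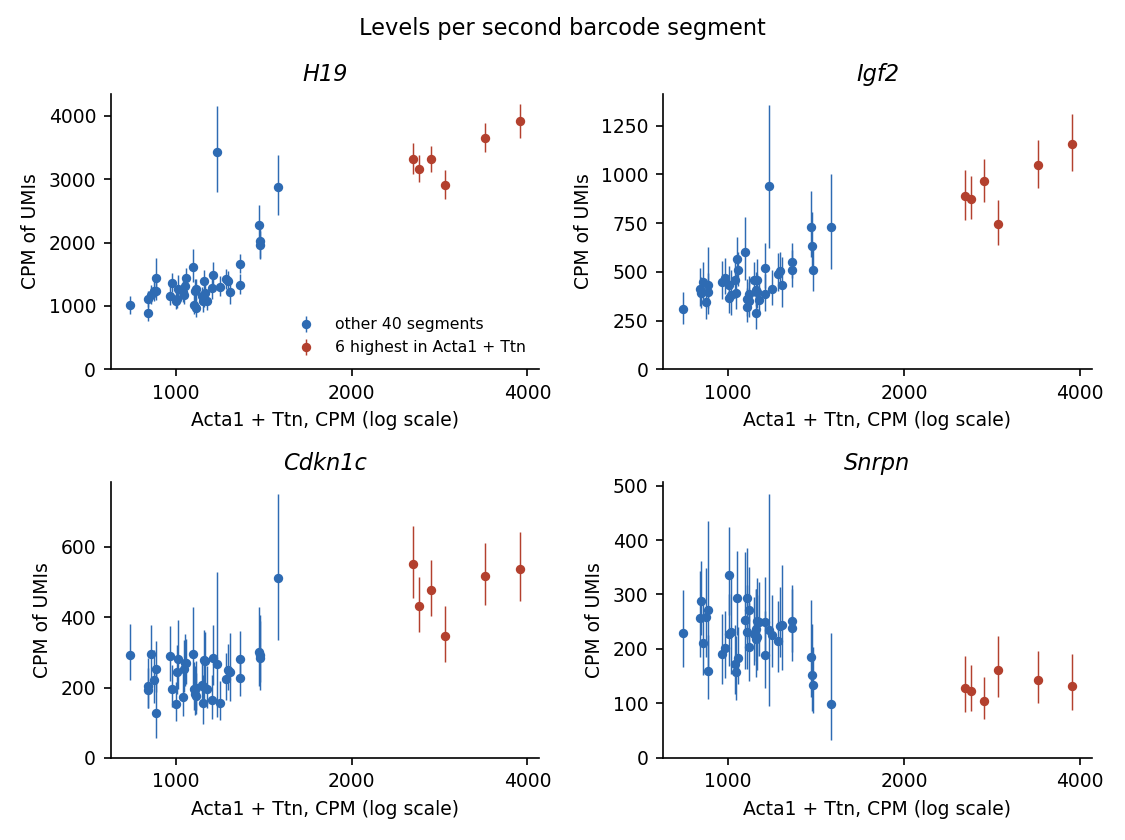
CPM of H19, Igf2, Cdkn1c and Snrpn in each of 46 second barcode segments against CPM of Acta1 plus Ttn on a log axis, with 95% Poisson intervals. The 6 segments highest in Acta1 plus Ttn (red) hold 2911 to 3911 CPM of H19, and 1 of the other 40 (blue) reaches that range, while Snrpn is lower in the 6 segments (105 to 161 CPM).

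The genes whose levels over the 46 segments were most like those of H19 were Tpm1 (Pearson r = 0.934), Tpm2 (0.916), Tnnt3 (0.910), Col1a1 (0.897) and Eno3 (0.891), out of 7931 genes. Tpm1, Tpm2 and Tnnt3 encode tropomyosins and a troponin of muscle, Eno3 the muscle enolase, and Col1a1 a collagen of connective tissue and bone. Igf2 was left out of this ranking as one of the 10 genes, but its own r with H19 was 0.946. Most like Igf2 were Tpm2 (0.892), Tpm1 (0.882), Myh8 (0.881), Eno3 (0.873) and Tnnt3 (0.871). Among the 10 genes, Cdkn1c (0.775) and Grb10 (0.615) were next closest to H19, and Snrpn was the farthest (-0.711). The segments share 1 library and differ in depth, so these values describe a pattern and are not tested.

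Other tissues moved with muscle, so the 10 imprinted genes were set against 10 marker lists. In muscle-rich spots the connective tissue and bone list was 2.59 times its neural level (2.48 to 2.70), with Col1a1 at 3.01 and 9 of the 11 genes that passed the minimum at least 2 times higher. The epithelium list was 3.42 times higher (3.03 to 3.85), with Wfdc2 at 4.94 and all 7 genes that passed the minimum at least 2 times higher. The erythroid list was 1.29 times higher, with 0 of 6 genes past 2-fold, and the endothelial list 1.14 times, with 1 of 8. Radial glia (1.09), meninges and mural cells (1.21), choroid plexus (0.883) and pituitary (1.81, with 4 of 8 genes past the minimum and 1 gene at 0) made up the remaining lists, beside muscle (3.85) and neuron. The muscle list includes Acta1 and Ttn, which chose the muscle-rich spots, so its ratio is partly set by that choice. In the top 10% of spots by the connective tissue list, 34.5% were also muscle-rich, and in the top 10% by the epithelium list 30%. The part of these tissues in the ratios above was not tested as a cause.

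H19 was 2.76 times higher in the top 10% of spots by the muscle list than in all other spots (2.66 to 2.86), 2.16 times by the connective tissue list (2.07 to 2.26) and 1.75 times by the epithelium list (1.67 to 1.82). It was 0.988 times by the endothelial list and 0.702 times by the neuron list. Igf2 and Cdkn1c had their highest ratios with muscle too, 2.27 and 2.06, and Mest had like ratios with connective tissue, 1.77 (1.45 to 2.13), epithelium, 1.64, and muscle, 1.61. Ndn and Snrpn were below 1 with all of these lists, Ndn between 0.613 and 0.668 and Snrpn between 0.614 and 0.702, with overlapping intervals. In the top 10% by the neuron list Snrpn had a ratio of 1.18 (1.01 to 1.37) and Ndn had a ratio of 1.104 there (0.913 to 1.32), an interval that includes 1. In the top 5% by the neuron list Snrpn had 1.04 (0.826 to 1.30), and in the top 10% by the choroid plexus list 1.20 (1.03 to 1.39).

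Muscle and connective tissue could be pulled apart in part, a comparison chosen after seeing the data. In 27 spots in the top 10% of the muscle list and outside the top 25% of the connective tissue list, H19 had 3886 CPM (3550 to 4245). In 45 spots with the lists exchanged it had 2614 CPM (2339 to 2912), and in 1311 spots outside the top 25% of both it had 1220 CPM (1192 to 1249). In these sets H19 was thus higher in spots rich in either tissue, and higher with muscle than with connective tissue. Barcode segments and epithelium were not held fixed, so the ranking may depend on them. It was not seen in the highest quintile of spots, where the tissues were not pulled apart. There H19 had 3010 CPM (2927 to 3096) by the connective tissue list and 2900 CPM (2821 to 2981) by Acta1 plus Ttn. For Igf2 the values in the 27, 45 and 1311 spots were 1153 (974 to 1356), 848 (695 to 1024) and 417 CPM. Mest had 94.8 CPM (49.0 to 166) with muscle alone high and 103 CPM (54.8 to 176) with connective tissue alone high, from 12 and 13 UMIs. It had 86.9 CPM where neither was high and 202 CPM (160 to 251) in the 81 spots high in both. The intervals where a single tissue was high overlapped that of the 81 spots.

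**Figure D3:**
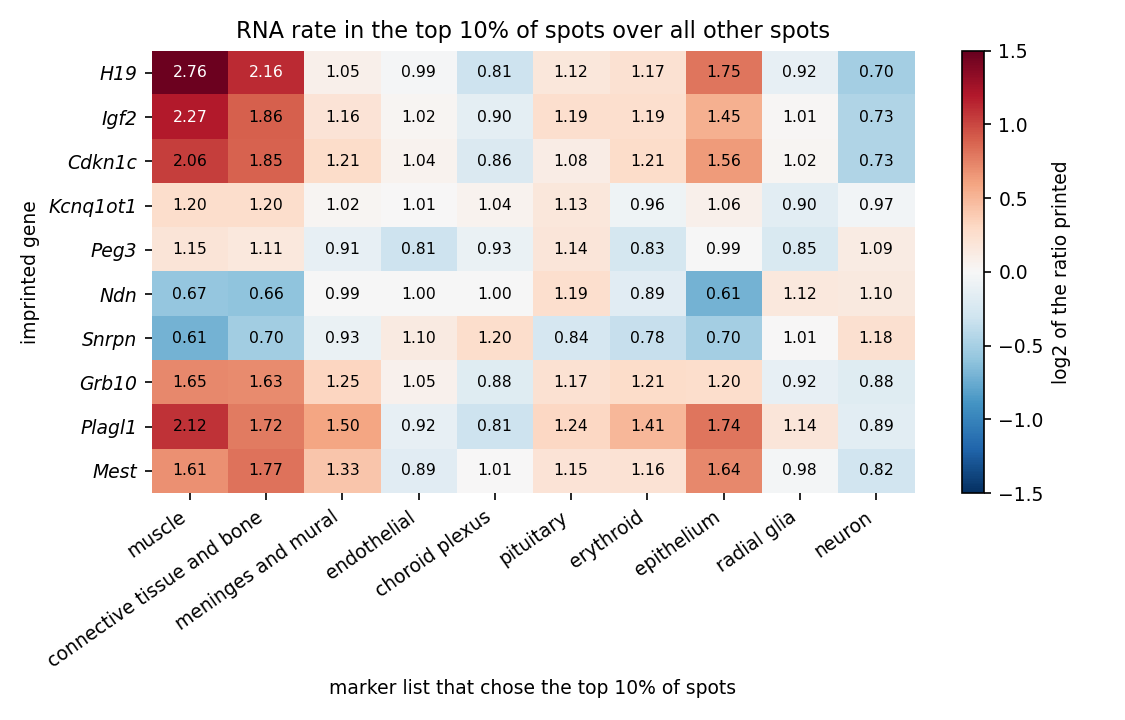
Each cell gives the RNA rate of an imprinted gene in the top 10% of spots by a marker list, divided by its rate in all other kept spots, and is coloured by log2 of that ratio. H19 has 2.76 with muscle and 2.16 with connective tissue and bone, and Snrpn has 0.614 with muscle and 1.18 with neuron.

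Promoter accessibility was then compared between the same sets of spots, as fragments within 1 kb of any TSS of a basic GENCODE M21 transcript, scaled to the total of promoter fragments of the set. Of the 10 genes, 9 had at least 20 fragments in both sets together, and Ndn, with 5 and 13, did not. At least 1.5 times more in muscle-rich spots were 4 promoters, H19, Igf2, Cdkn1c and Plagl1, and at most 1/1.5 times were 2, Snrpn and Mest. The 4 are the genes past 2-fold in RNA, but the thresholds differ. At 1.5-fold 6 genes were higher in RNA, with Grb10 and Mest added. Among 25425 genes, 13.1% passed 1.5-fold upward and 17.1% downward.

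H19 had 58 promoter fragments in muscle-rich and 50 in neural spots, a ratio of rates of 2.95 (1.98 to 4.39), against 2.96 for its RNA. With the second segment as a stratum the H19 promoter ratio was 3.24, with no interval, and without the 6 segments 3.63. Igf2 promoters had 116 fragments in neural spots and a ratio of 3.22 (2.51 to 4.14), which was 1.47 within segments. The TSSs of Igf2 differed in level, with 148 fragments of the kept spots within 500 bp of the one at 142657496 and 36 at 142661305. The ratio was 4.61 (2.83 to 7.67) at 142657496 and 1.74 (0.789 to 3.71) at 142666816, the TSS farthest upstream. Cdkn1c had a promoter ratio of 1.62 (1.17 to 2.22), which was 0.932 within segments, and Plagl1 1.55 (1.04 to 2.29).

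Mest and Grb10 differed between measures or between TSSs. Mest RNA was higher in muscle-rich spots, but its promoters had 36 against 149 fragments, a ratio of 0.614 (0.414 to 0.888). This was 0.965 with the second segment as a stratum and 0.863 (0.637 to 1.15) with windows of 2 kb, so that the contrast with Mest RNA depends on both choices. The Mest TSS with the most fragments, at chromosome 6, 30738050, had 0.535 (0.291 to 0.925), and that at 30733506 had the same ratio from 4 and 19 fragments. Over its 3 TSSs Grb10 had a ratio of 1.42 (0.953 to 2.09). This depended on the window, with 2.21 (1.33 to 3.65) for windows of 500 bp and 1.08 (0.831 to 1.39) for windows of 2 kb. At the most upstream principal TSS alone it was 2.37 (1.35 to 4.14). With windows of 500 bp or that TSS alone, 5 promoters of the 10 genes were higher. The Grb10 TSS at chromosome 11, 12037420, which lies in a peak, had 3.25 (1.68 to 6.38), and that at 12027971 had 1.39 (0.421 to 4.09) from 6 and 11 fragments.

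The promoters of the other paternally expressed genes, Snrpn, Ndn, Kcnq1ot1 and Peg3, had ratios below 1 or intervals that included 1. Snrpn had 13 and 61 fragments, a ratio of 0.541 (0.273 to 0.996), and its 4 TSSs from GENCODE or RefSeq taken singly all lay below 1, from 0.169 to 0.462. Of their intervals 1 excluded 1, at a RefSeq TSS (60450177) outside the GENCODE windows. With the second segment as a stratum the Snrpn promoter ratio was 1.52, in the opposite direction. Ndn had 16 and 36 fragments around its RefSeq TSS (62348277), which the GENCODE windows left out, a ratio of 1.13 (0.585 to 2.09). The GENCODE start of Ndn lies upstream of this TSS, at 62346569, and had 1 and 6 fragments. Kcnq1ot1 (1.31, 0.964 to 1.76) and Peg3 (1.12, 0.867 to 1.44) had intervals that included 1, and Peg3 had 0.819 (0.689 to 0.970) with windows of 2 kb. The Kcnq1ot1 promoter stayed above 1 in all 10 alternatives (1.13 to 1.52). Its interval excluded 1 in some of them, such as the top 20% (1.36, 1.06 to 1.75), and included 1 in others.

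Chromatin around H19 was more open in muscle-rich spots at most peaks, but not at the peak with CTCF sites 1 and 2. Within 150 kb of the H19 TSS there were 21 peaks with 111 to 432 counts each in the kept spots. Of these, 14 were at least 2 times higher in muscle-rich spots, with ratios of 2.66 to 4.99, and 0 were at most 0.5 times. Within 50 kb, 4 peaks were past 2-fold, and the wider region takes in Tnnt3 and Tnni2, troponin genes of the muscle list. Over all 88810 peaks tested, 11.6% passed 2-fold upward and 17.6% downward. The median ratio of the 21 peaks was 3.24.

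The peak at the H19 promoter (chr7:142577912-142578754) had 72 counts in muscle-rich and 63 in neural spots, a ratio of 2.98 (2.09 to 4.24). A peak 3.20 kb downstream of the TSS, just beyond the end of H19, had 3.37 (2.45 to 4.67). At Igf2, the peak over the TSS at 142657496 (chr7:142657126-142658025) had 92 and 48 counts and the highest ratio of the 21, 4.99 (3.48 to 7.23). Its neighbours at 142655799 and 142658770 had 4.51 and 3.38. A peak in Gm33148, 22.0 kb upstream of H19, had 4.17 (2.76 to 6.35). The peak farthest downstream, in intergenic sequence 148 kb away and beyond the TSS of Tnni2, had 4.24 (3.22 to 5.61).

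The peak that holds CTCF sites 1 and 2 (chr7:142580034-142580892) had 40 counts in muscle-rich and 133 in neural spots, a ratio of 0.783 (0.536 to 1.12). This was the lowest of the 21 ratios, though not within second segments, and its interval lay below those of all 14 peaks past 2-fold, the H19 promoter peak included. It overlapped those of 5 of the other 6 peaks, among them a peak at Prr33 and Tnnt3 with 0.868 (0.488 to 1.48). In neural spots only 1 of the 21 peaks had a higher rate, the one at the promoter of Mrpl23, a mitochondrial ribosomal protein gene, with 1.11 (0.812 to 1.498). The 117 other peaks with a match of the motif that could be tested had a median ratio of 0.990, with 8 at least 2 and 10 at most 0.5. The pattern is strict and matched in only 0.129% of all peaks. Peaks without a match, near H19 or elsewhere, may therefore hold CTCF sites with other letters. Within second segments the ratio of the peak with sites 1 and 2 was 0.426, and the median of the 21 peaks fell from 3.24 to 1.21, with 15 of 21 above 1, 3 at least 2 and 3 at most 0.5. A peak in Gm33148 33.1 kb upstream (0.277) and a peak at Lsp1 and Prr33, which had 4.14 unstratified (0.404), then lay below the peak with CTCF sites. The H19 promoter peak then had 2.16, the peak over the Igf2 TSS 1.41, the peak in Gm33148 1.17 and the peak farthest downstream 1.18. The peak 3.20 kb downstream of the H19 TSS turned below 1, at 0.853.

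**Figure D4:**
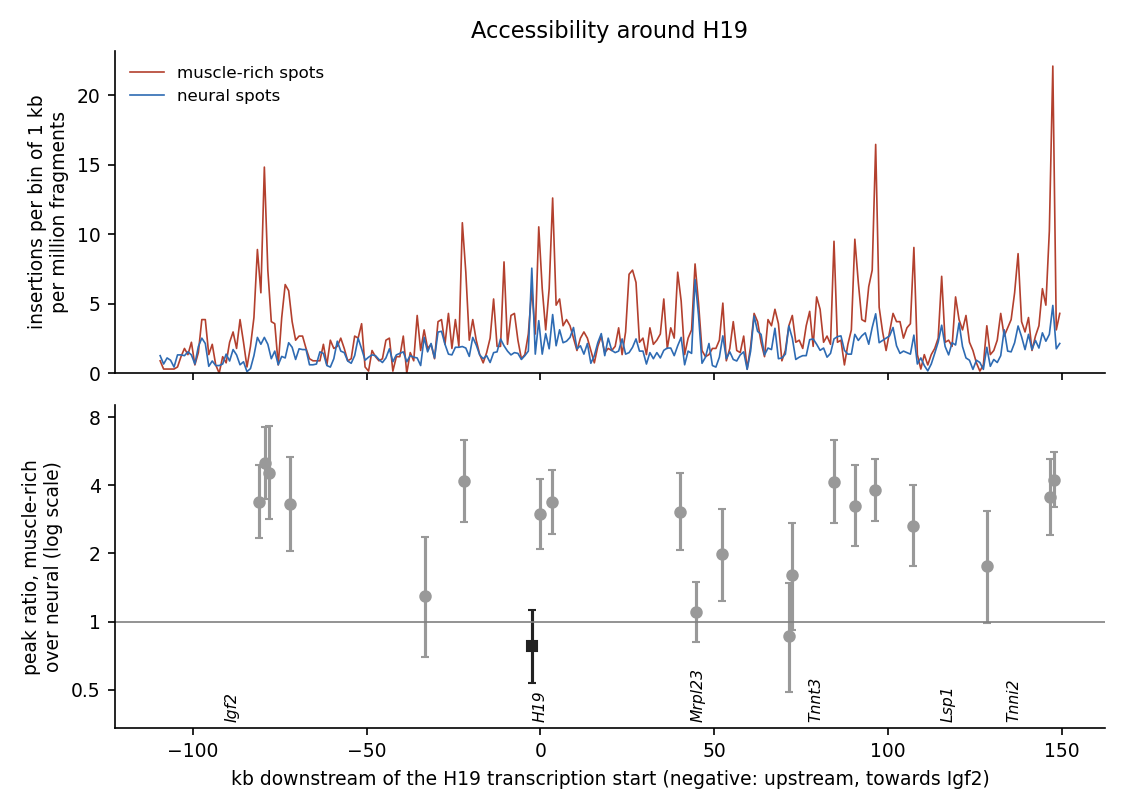
Top, insertions (fragment ends) per bin of 1 kb around H19, scaled to the fragments of the set, in muscle-rich (red) and neural spots (blue). Bottom, the ratio of the sets at each of 21 peaks on a log axis with 95% counting intervals, with gene names at their most upstream TSS, where the peak with CTCF sites (black square) has 0.783 and the 3 peaks in Igf2 have 3.38 to 4.99.

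Single sites were resolved in the insertions. Within 50 bp of its centre, site 1 had 17 insertions in muscle-rich and 42 in neural spots, site 2 had 8 and 28, site 3 had 8 and 10, and site 4 had 5 and 12. Scaled to all fragments of the set, the ratio was 1.096 (0.585 to 1.97) at site 1 and 0.774 (0.305 to 1.74) at site 2. At sites 3 and 4, which lie in no peak, it was 2.17 (0.743 to 6.10) and 1.13 (0.311 to 3.44), so that every interval included 1. Insertions within 50 bp of the 4 centres were 4.94 times as dense as 200 to 1000 bp away in muscle-rich spots (3.34 to 7.16) and 5.37 times in neural spots (4.20 to 6.83). The same measure over the 557 other matches was 2.37 (2.25 to 2.51) and 2.26 (2.18 to 2.34). The flanks of the sites upstream of H19 take in neighbouring sites but not the H19 TSS.

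**Figure D5:**
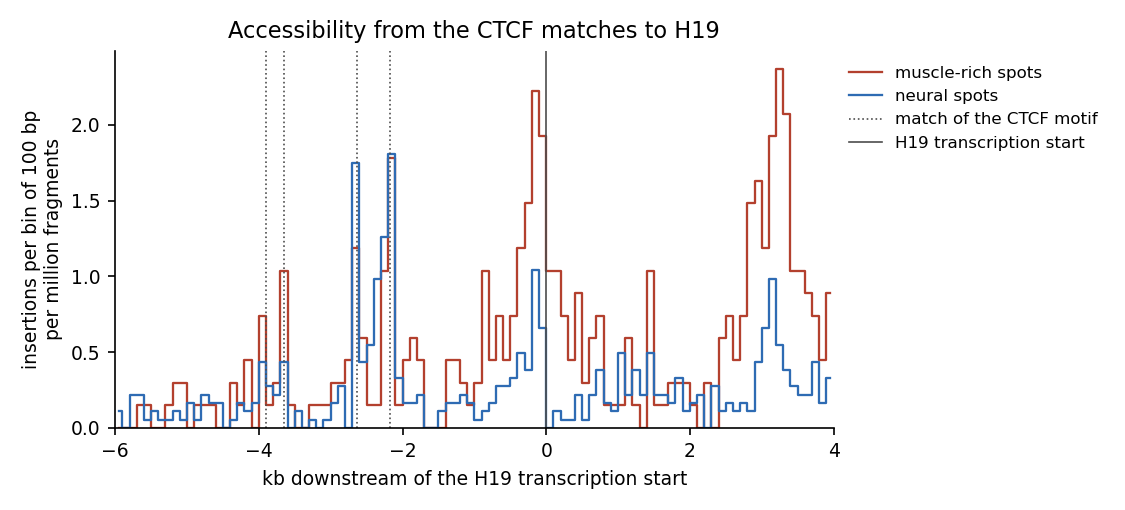
Insertions per bin of 100 bp, scaled to the fragments of the set, from 6 kb upstream to 4 kb downstream of the H19 TSS in muscle-rich (red) and neural spots (blue), with the 4 motif matches as dotted lines. At sites 1 and 2 (2.17 and 2.63 kb upstream) the sets reach similar heights, and at the H19 promoter and 3.20 kb downstream the muscle-rich spots are higher.

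The genes next to H19 were in part muscle genes themselves. Of 10 other genes with a TSS within 150 kb, Tnnt3 and Tnni2, which encode troponins of fast skeletal muscle and stand on the muscle list, had RNA ratios of 3.31 (3.06 to 3.57) and 3.58 (3.31 to 3.86). Mrpl23, 45.5 kb downstream between H19 and Tnnt3, had 988 UMIs and a ratio of 1.09 (0.877 to 1.35). Igf2os, antisense to Igf2, had 39 UMIs in the kept spots and a ratio of 1.39 (0.456 to 3.63). Nctc1, a noncoding RNA 19.5 kb downstream, had 8 UMIs and was under the minimum.

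Other imprinted genes were counted from a list of 43, of which 34 passed the minimum. Of these, 2 were at least 2 times higher in muscle-rich spots, 2 were at most 0.5 times, against 6.3% and 4% of all genes, so that their share was near the background. The median ratio was 0.956, against 0.981 for all genes. Airn, the antisense RNA of the Igf2r locus, had 365 against 152 CPM (ratio 2.41, 2.09 to 2.76). Dlk1, a growth regulator of the Notch ligand family, had 213 against 84.5 CPM (2.52, 2.09 to 3.02). Kcnk9, a potassium channel gene, had 20.6 against 43.3 CPM (0.476, 0.275 to 0.775) and Sfmbt2, a Polycomb protein gene, 11.4 against 27.5 CPM (0.416, 0.194 to 0.796).

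Among 18 further genes of the IGF pathway, 17 passed the minimum and 3 were at least 2 times higher in muscle-rich spots, against 6.3% of all genes, with a median ratio of 1.30. With a minimum of 50 UMIs 2 were higher, and without the 6 segments 1 was higher and 2 were lower. Igf1, the other main IGF ligand, had 93.8 against 32.9 CPM (ratio 2.85, 2.13 to 3.79). Igfbp3 (2.30, 1.36 to 3.80) and Igfbp6 (2.52, 1.13 to 5.37) encode secreted proteins that bind IGFs. The receptors lay lower, with Igf1r at 1.11 (0.974 to 1.25) and Igf2r, which clears IGF2 and is itself imprinted, at 1.52 (1.15 to 1.99). At promoters, 8 of the 18 genes passed 1.5-fold upward and 0 downward, against 13.1% and 17.1% of all genes.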

How the data were processed

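The deposited files were 1 RNA and accessibility count matrix and 1 fragment file of the same barcodes. Per the file headers, the authors made them with cellranger-arc 2.0.1 on mm10 (GRCm38), and the submitters' processing notes name Seurat 4.0. The deposited values were raw counts, namely UMI counts per gene and cut-site counts per peak, without normalisation. Coordinates of features and the barcode names were other deposited columns, used as labels only. The 10 genes, the gene lists and the definition of the sets of spots were chosen with earlier results of these data known. The spots of a library are not replicates, and intervals cover no spread between animals or sections.

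The filter on spots asked for 500 to 6000 detected genes and no more than 20% of UMIs from mitochondrial genes. Counts were summed over the spots of a set and divided by the set's total of UMIs, promoter fragments or peak counts. At 95%, counts have exact Poisson intervals, shares have Clopper-Pearson intervals, and ratios have binomial intervals conditional on the sum of both counts. A gene or peak was counted as higher or lower past 2-fold with at least 20 counts over both sets, and a promoter past 1.5-fold. Promoter windows took in every TSS of basic transcripts in GENCODE M21, and single TSSs were counted within 500 bp. Shares at equal depth are those expected over all draws of 2000 UMIs. Likeness was Pearson's r of log2(CPM + 10) over second segments with at least 10 spots, for genes with at least 200 UMIs. Named were the 10 genes, genes with a TSS within 150 kb of H19, genes of the 2 lists past 2-fold with an interval that excludes 1, and the 5 genes most like H19 and Igf2. Igf1r and Igf2r and markers of other tissues were named after their values were seen. Sequences are those of RefSeq GRCm38.p6. The list of imprinted genes holds 1 name that is not in the matrix.

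The steps were tested on simulated data: of 200 genes changed 3-fold among 13842, 88.5% passed 2-fold, and 96.4% of intervals held the true ratio. The simulation had Poisson noise only. Python with numpy, scipy, pandas and matplotlib was used. Alternatives covered the sets of spots, filters, totals, minimums, windows, flanks and segments. Windows around a single TSS, the removal of 6 segments, the segment as a stratum for peaks and the separation of muscle from connective tissue were added after seeing the data.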

Additional observations from a re-analysis of the deposited data

Results flagged for a closer look

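Signal was found in barcodes that the comparisons did not use. Outside the count matrix, 507 barcodes of the fragment file held fragments at the promoters of the 10 genes, 277 in all and 23 at H19. Both counts are above the 3 that a count of 0 allows. These barcodes held 578947 promoter fragments of all genes, so passing 3 counts says nothing particular about the 10 genes. In CPM of promoter fragments the 10 genes had 478, against 437 in the kept spots, and H19 had 39.7, against 28.4. These barcodes have no RNA counts here and could not be placed in a set of spots.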

How the results depend on the processing

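The ratio of muscle-rich to neural spots stayed above 1 for H19 and Igf2 under every alternative run, for RNA and for promoters, but its size depended on the choice of spots. For H19 RNA it was 3.56 with the top 5%, 2.35 with the top 20%, 3.14 with the muscle list of 12 genes and 2.73 without the neuron condition, and for Igf2 2.88, 2.01, 2.58 and 2.29. With the second segment as a stratum it was 1.26 and 1.28, and without the 6 segments 1.43 and 1.55. The number of the 10 genes past 2-fold upward was 2 with the top 20% and 1 without the 6 segments, and at 1.5-fold 1 gene was lower. For the other imprinted genes the number higher was 1 with the top 20%, 5 at 1.5-fold and 1 without the 6 segments, and the number lower was 4 with the top 5%, 4 at 1.5-fold, 6 without the 6 segments, and 0 with the top 20%, with the muscle list and with at least 2000 UMIs. In the IGF pathway 7 genes were higher at 1.5-fold and 1 without the 6 segments, and 1 and 2 were lower. The Igf2 promoter ratio was 1.47 within segments and 2.26 (1.17 to 4.02) without the 6 segments. At the most upstream principal TSS alone it was 1.91 (0.975 to 3.66), an interval that includes 1. Lower promoters numbered 1 with the top 20%, with windows of 2 kb, at the most upstream principal TSS and without the 6 segments. Within 50 kb 4 peaks were past 2-fold, within segments 3 were higher and 3 lower, and without the 6 segments 2 peaks were lower. The peak with CTCF sites had 0.426 within segments and 0.307 without the 6 segments, the latter from the 50 muscle-rich spots then left. The median of the 21 peaks within segments was 1.21. The density at the CTCF sites was 3.06 in muscle-rich and 3.47 in neural spots with a centre of 100 bp, and 3.54 in neural spots with flanks of 100 to 500 bp. Thinned to 1000 UMIs, H19 was expected in 93.7% and 70.1% of spots. With the top 5%, H19 was 3.01 times higher by the muscle list and 1.99 times by connective tissue, and Igf2 2.45 times by muscle. Outside the top 25% of the other list, H19 had 3.19 by muscle and Igf2 2.76 by muscle and 2.03 by connective tissue. Of the 5 genes most like H19, Spearman correlation kept 3 and first segments 1, and for Igf2 3 and 0. The cause of these changes was not tested.

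Among the 10 genes, where the reported interval lay on 1 side of 1, the direction turned for Kcnq1ot1 RNA and for the Cdkn1c and Snrpn promoters. With the second segment as a stratum the RNA ratio of Kcnq1ot1 was 0.910, the promoter ratio of Cdkn1c 0.932 and that of Snrpn 1.52, and without the 6 segments the RNA ratio of Kcnq1ot1 was 0.864 (0.571 to 1.26). The Peg3 and Ndn promoters, whose intervals included 1, kept their side of 1 in 7 and 6 of 10 alternatives, with ranges of 0.573 to 1.19 and 0.426 to 1.75. Among the peaks past 2-fold, 4 turned below 1 within segments, with 0.853, 0.404, 0.941 and 0.962. The settings without the 6 segments, with a single principal TSS, with segments as strata for peaks and outside the top 25% of the other list were chosen after seeing the data.

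No paired analysis was possible because each assay has 1 library. Single CTCF sites had 5 to 42 insertions per set, and their intervals bound the ratio to at most 1.97 at site 1 and 1.74 at site 2, and more loosely at sites 3 and 4.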
